A study of Danio rerio with 15 samples.

Results

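The brains of female and male zebrafish on a control diet were compared: 3 females against 4 males, which are 7 of the 15 arrays of the series. All 7 fish were of the strain labelled Transgenic Mosaic 1, were 1 year old and sexually mature, and had eaten for 14 days a diet with 1.4 ppm selenium. The other 8 fish, 4 females and 4 males of the same strain and age, had eaten for 14 days a diet with 5.6 ppm selenium, the extra selenium being sodium selenite. They share no fish with the control comparison and served as a second reading of each sex difference. Each array read the whole brain of 1 fish. The design text gives both sexes the same number of fish per diet, and a further control female is not analysed here. The strain name is given with no account of a transgene, and no label gives a batch, a tank or a time of sampling. The comparison covered all 15502 probe sets other than the manufacturer's controls. A probe set is a group of short probes that read 1 transcript, and its value is a log2 expression level, so a difference of 1 is a doubling.

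The brain of adult teleosts makes sex steroids of its own. Radial glia, which line the ventricles and also act as neural stem cells, hold a brain form of aromatase that turns androgens into oestrogens. Adult zebrafish keep proliferating cells in many parts of the brain, and hypothalamic peptide neurons link it to the pituitary and the gonads. Laboratory zebrafish carry no sex chromosome pair like that of mammals, so no single gene on the array checks the sex labels.

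The control arrays resembled each other closely, with pairwise correlations between 0.986 and 0.992 and medians between 7.24 and 7.35. Neuronal genes were bright in all 7 brains, at a list mean of 10.72 to 10.78 in females and 10.78 to 10.85 in males. Signal of other tissues stood high in single fish. The second female had a retina and lens list mean of 6.14, against 4.77 to 5.36 in the other 6 control fish, and a pineal list mean of 7.96, against 6.37 to 6.94. The second male had an epithelium and keratin list mean of 6.91, against 5.81 to 6.02 in the others. The third female had growth hormone gh1 at 8.76, against 4.66 to 6.60 in the others. Skeletal muscle genes lay within 5.92 to 6.13 in all 7 fish. The 3′ minus 5′ difference of the gapdh control probes, a measure of RNA integrity, was 0.98, 0.97 and 1.61 in females and 0.89 to 1.26 in males, with means of 1.19 ± 0.37 and 1.04 ± 0.16 (SD, n = 3 and 4; exact permutation p = 0.6, two-sided). In the selenium fish it was 1.33 to 1.84 in females and 0.66 to 1.17 in males, with no overlap. The part of these measures in the results below was tested only where stated.

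No probe set differed between control females and males past the threshold used, an adjusted p under 0.05 in limma with Benjamini-Hochberg adjustment over all 15502 probe sets. The share called was 0 percent, and the smallest adjusted p was 0.458. At an unadjusted p under 0.05 there were 890 probe sets, where 775.1 would be expected if no probe set differed. Of these, 441 were higher in females, 2.84 percent of those tested, and 449 were lower, 2.9 percent. The 3 females lay all above or all below the 4 males in 1188 probe sets, 7.66 percent. For 12497 probe sets, 80.6 percent, the 95% confidence interval of the difference lay within 1.5-fold of no difference. Half-widths of these intervals had a median of 0.27 log2 units, so larger differences than that could go uncalled in a single gene. The same model called 162 probe sets between the sexes on the selenium diet, 1.05 percent, of which 55 were higher and 107 lower in females. That count was 4 with the selenium arrays alone and 1 with the gapdh measure as a covariate. Selenium males 1 to 4 had muscle list means of 8.32, 6.60, 6.92 and 6.17, against 5.92 to 6.13 in the control fish. Their retina and lens list means were 5.04, 7.33, 4.86 and 6.88. The model called 0 percent for the change of the sex difference between the diets, with 1298 at an unadjusted p under 0.05 and a smallest adjusted p of 0.442. The genes below are therefore given by their values, as the foremost of an uncalled ranking.

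The count of 0 changed when 1 particular fish was left out, and stayed at 0 with array weights. Without the third female, which leaves 2 females, 6 of 15502 probe sets passed. Of these 4 were higher and 2 lower in females, and the lowest adjusted p in limma was 0.0019. The 2 lower ones were add1 and hsd17b3. The higher ones, which were chosen after their values were seen, were yipf5, idh3b, phpt1 and a probe set with no gene symbol. In the selenium fish these 4 differed little between the sexes, at 0.17, -0.10, 0.03 and 0.12. For idh3b, a subunit of a citric acid cycle enzyme, the first and second female stood at 6.58 and 6.29, while the third stood at 4.94, within the males at 4.79 to 5.25. Leaving out any other control fish called none.

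The smallest p of any gene belonged to hsd17b3, an enzyme of the 17β-hydroxysteroid dehydrogenase family that makes testosterone from androstenedione. It read 6.46, 6.30 and 6.84 in females and 7.18, 7.24, 7.47 and 7.45 in males. The groups did not overlap, and the difference was -0.80 ± 0.13 (SE; 95% interval -1.08 to -0.52; adjusted p = 0.458). On the selenium diet the females were again all below the males, with a smaller difference of -0.28 ± 0.12. The change between the diets had an unadjusted p of 0.012 and an adjusted p of 0.545, so it was not called.

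**Figure D1:**
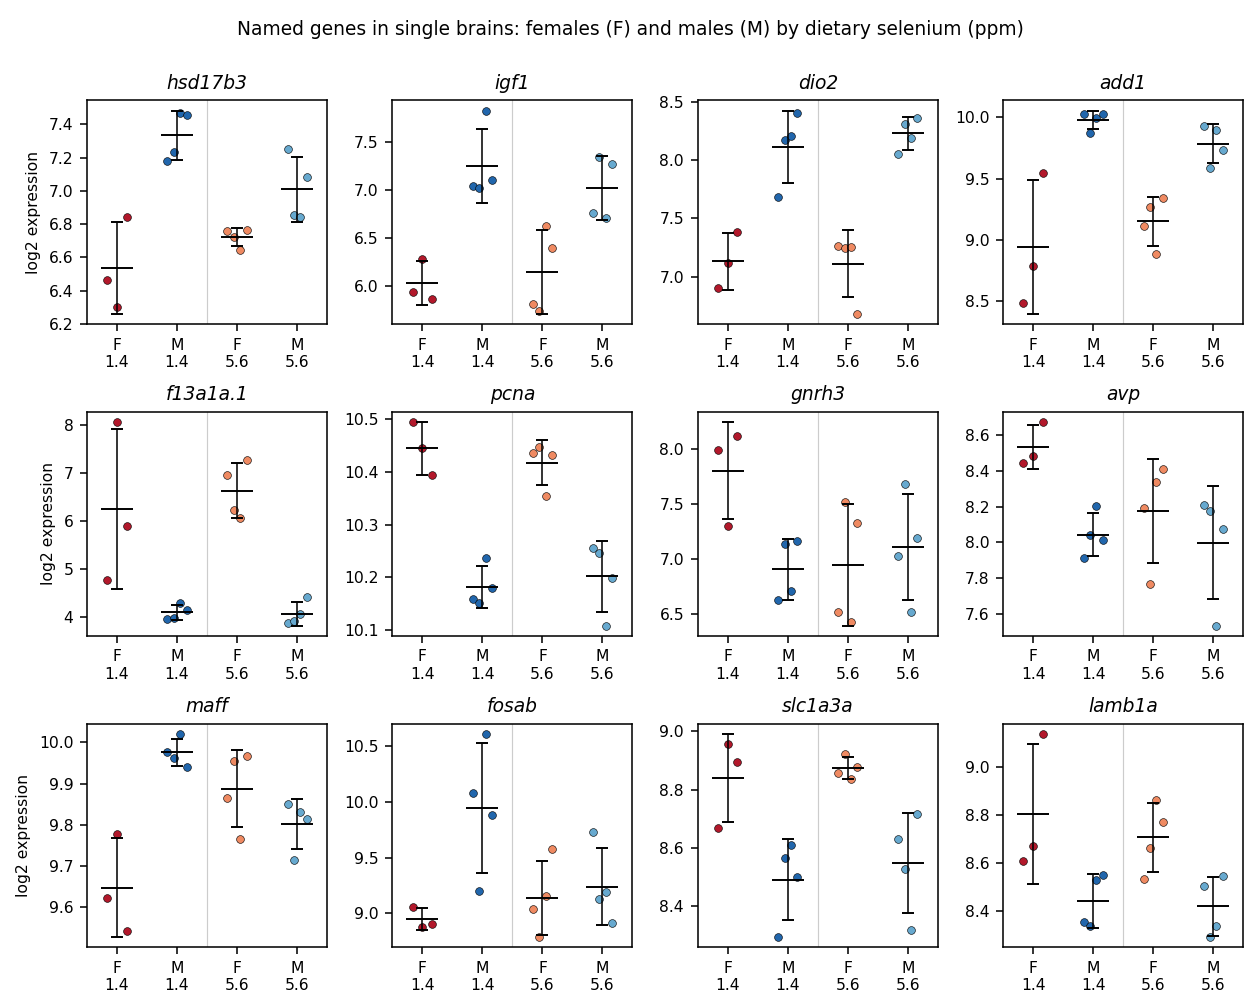
Log2 expression of 12 named genes in each brain (points) by sex and dietary selenium in ppm, with the mean (bar) and SD (error bars) of each group; gnrh3 is drawn by its brightest probe set. On the control diet hsd17b3, igf1, dio2, add1, maff and fosab have all 3 females below all 4 males and the other 6 genes all females above all males, while gnrh3, avp, maff, fosab and lamb1a overlap between the sexes on the selenium diet.

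The growth factor gene igf1 and the deiodinase gene dio2 were also among the 20 genes of smallest p. In igf1 the values were 5.94, 6.28 and 5.86 in females and 7.04, 7.02, 7.82 and 7.10 in males, without overlap, a difference of -1.22 ± 0.25 (SE, adjusted p = 0.574). In the selenium fish it was also lower in all females than in all males, by -0.88 ± 0.23 (adjusted p = 0.0825). Read over the 20 measured genes of the growth list, 6 were higher and 14 lower in females, with a median of -0.07. Deiodinase 2, the product of dio2, is a selenoprotein that turns thyroxine into the active thyroid hormone. Its gene read 6.90, 7.12 and 7.39 in females and 7.68, 8.17, 8.21 and 8.40 in males. These groups were separate as well, at -0.98 ± 0.18 (SE, adjusted p = 0.496). In the selenium fish dio2 was called, at -1.12 ± 0.17 (adjusted p = 0.0205), with all 4 females below all 4 males. Of all 23 measured selenoprotein genes 13 were higher and 10 lower in control females, with a median of 0.023. Only dio2, 1 of the 23, had separate groups, a share near the 4.58 percent above and 3.35 percent below of all genes. The glutathione peroxidase gene gpx1a stood at 0.25 ± 0.11, with overlap. The thyroid hormone receptor gene thraa stood at 0.32 ± 0.12 in control fish and at 0.49 ± 0.11 in selenium fish, with adjusted p values of 0.819 and 0.054.

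The membrane skeleton gene add1, which codes for an adducin, read 8.48, 8.79 and 9.54 in females and 10.03, 9.87, 9.99 and 10.03 in males. The difference was -1.04 ± 0.19 (SE, adjusted p = 0.496), with the third female nearest to the males; without that fish it was -1.34 and passed. Under extra selenium add1 stood at -0.63 ± 0.18 (adjusted p = 0.0937), again without overlap. The gene f13a1a.1, for the A subunit of coagulation factor XIII, which macrophages also make, read 4.77, 8.06 and 5.90 in females and 3.96, 3.98, 4.29 and 4.15 in males. Its difference of 2.15 ± 0.54 was the widest among the 20 genes of smallest p (adjusted p = 0.782), and the second female stood apart: without that fish it was 1.24. In the selenium fish it stood at 2.57 ± 0.50 and was called (adjusted p = 0.0405), with no overlap.

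The remaining genes among the 20, each read by its probe set of smallest p, differed by less than 0.7 log2 units. The proliferation gene pcna, the sliding clamp of DNA replication, read 10.49, 10.45 and 10.39 in females and 10.16, 10.15, 10.24 and 10.18 in males. All females were above all males, by 0.26 ± 0.06 (SE, adjusted p = 0.686), and on the selenium diet by 0.22 ± 0.06 (adjusted p = 0.0823). Also higher in control females were the annexin gene anxa4 at 0.69 in 1 of its probe sets, the tubulin gene tuba1b at 0.43, the glutamine tRNA ligase gene qars1 at 0.42, and zgc:171310 and zgc:66433 at 0.62 each. Lower were 1 probe set of srrm1, a splicing coactivator, at -0.56, the ubiquitin ligase gene rnf141 and the glycosyltransferase gene b3galt1b at -0.48 each, and rai14, whose product binds actin, at -0.46. The calcium pump gene atp2a2b and the thioredoxin-related gene tmx2b stood at -0.45 each, cacfd1, which takes part in synaptic vesicle turnover, at -0.38, and the small Maf transcription factor gene maff at -0.33. Other probe sets of some of these genes differed. The brightest for anxa4 read 0.06 ± 0.22, and the other 3 for tmx2b read -0.08, -0.20 and -0.06. For srrm1 the 2 brighter probe sets lay on the other side, at 0.24 ± 0.10 with all females above all males and at 0.20 ± 0.12, so no direction is given for that gene. A dim probe set of qars1 read -0.18 ± 0.09, and the other for zgc:66433 read 0.20 ± 0.18. For tuba1b, rai14 and zgc:171310 the probe set read was not the brightest of its gene. The brighter ones are not given here, so those values stand for single probe sets. Of the 20 genes, 19 had separate groups in the control fish, all but b3galt1b; since small p values chose them, that count describes the choice.

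**Figure D2:**
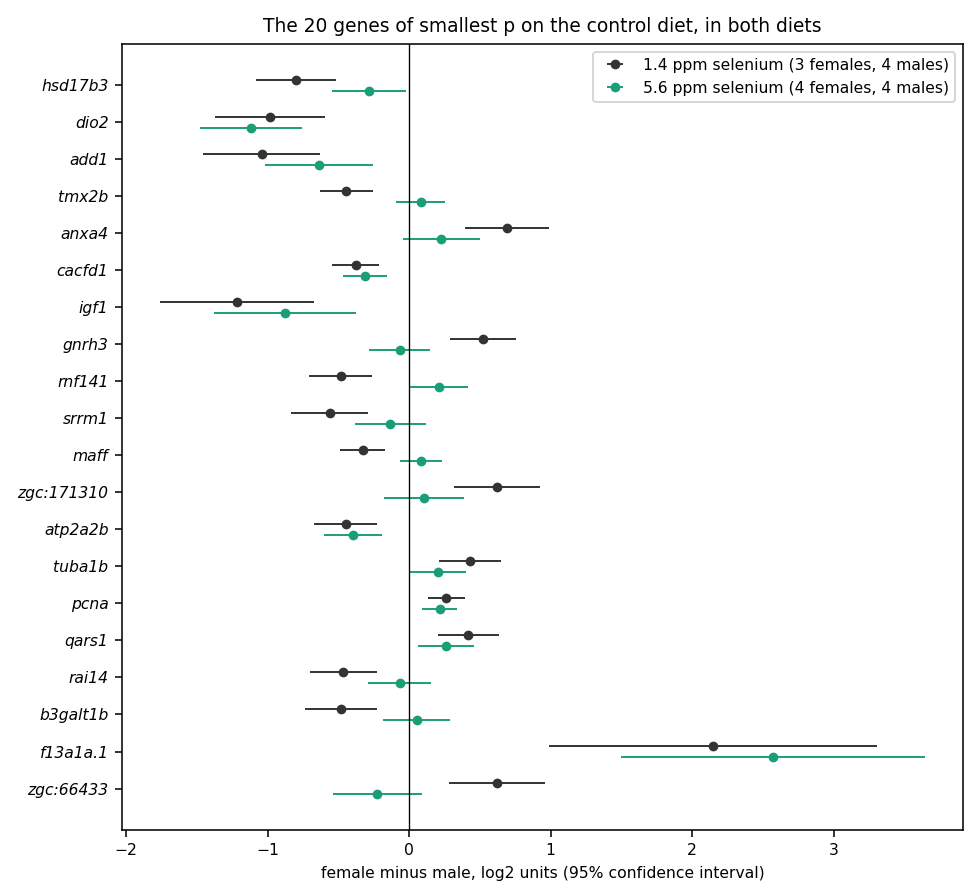
Female minus male difference in log2 units, with its 95% confidence interval, for the 20 genes of smallest p on the control diet, each by its probe set of smallest p, at 1.4 ppm selenium (dark) and at 5.6 ppm selenium (green). In the selenium fish 14 of the 20 keep their side of 0, and tmx2b, rnf141, maff, b3galt1b, gnrh3 and zgc:66433 lie on the other side.

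The selenium fish read 14 of these 20 genes in the same direction and 6 in the opposite one, against 54.9 percent in the same direction over all probe sets. Their levels do not enter the control difference, but their spread enters the shared variance behind the p that ranked the genes. Genes of small spread are thereby favoured on both diets, so p values and separate groups of the 20 in the selenium fish are descriptions and not an independent reading. Without overlap in the selenium fish, and in the same direction, were 8 of the 20, namely hsd17b3, dio2, add1, cacfd1, igf1, atp2a2b, pcna and f13a1a.1. Among all probe sets 10.2 percent were separate in the selenium fish in either direction, and 6.60 percent in the direction of the control difference. Nothing is read from the comparison. Only dio2 and f13a1a.1 were called there. The median size of the 20 differences was 0.50 in control fish and, taken in the same direction, 0.21 in selenium fish.

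Over the whole array, probe sets at an unadjusted p under 0.05 in both diets mostly had the same direction in both. Both p values use the same variance, which favours the same probe sets on both diets, so the direction is what the second diet adds. There were 190 in the same direction, 84 higher and 106 lower in females, and 40 in opposite directions. The 190 were 21.3 percent of the 890 of the control fish and 6.60 percent of those of the selenium fish, where 18.6 percent of all probe sets had such a p. They included the cytochrome P450 gene cyp1a, for an enzyme induced by aryl hydrocarbons, at -1.53 in control and -1.80 in selenium fish, and the brightest probe set of the neutrophil peroxidase gene mpx at -1.32 and -1.47. The identifiers of those probe sets share 1 cluster number, and the 2 ran in parallel over fish: cyp1a read 6.21, 5.01 and 4.43 in control females and 6.78, 7.34, 6.03 and 6.86 in control males, and mpx 6.49, 5.40 and 5.16 in control females and 7.06, 7.70, 6.42 and 6.82 in control males. They are therefore not counted as separate readings, and the other 3 mpx probe sets stood at -0.21, -0.13 and -0.08 in control fish. A dimmer probe set of elavl3, a neuronal RNA-binding protein gene, stood at -0.75 and -0.83, while the brightest stood at -0.09 and -0.33, and inhbaa, an activin subunit gene, at -0.53 and -0.66. The glial glutamate transporter gene slc1a3a stood at 0.35 and 0.33. Of these, cyp1a and the elavl3 probe set were chosen after their values were seen. Of the settings that leave out 1 control fish, the excess of same-direction probe sets was smallest without the third female, at 110 in the same and 58 in opposite directions, and largest without the second, at 274 and 19. With the gapdh measure as a covariate the counts were 120 and 25. Male 1 of the selenium diet had a muscle list mean of 8.32, and males 2 and 4 had retina list means of 7.33 and 6.88. Leaving them out keeps only male 3, itself with a muscle list mean of 6.92, so no counts are given without them.

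**Figure D3:**
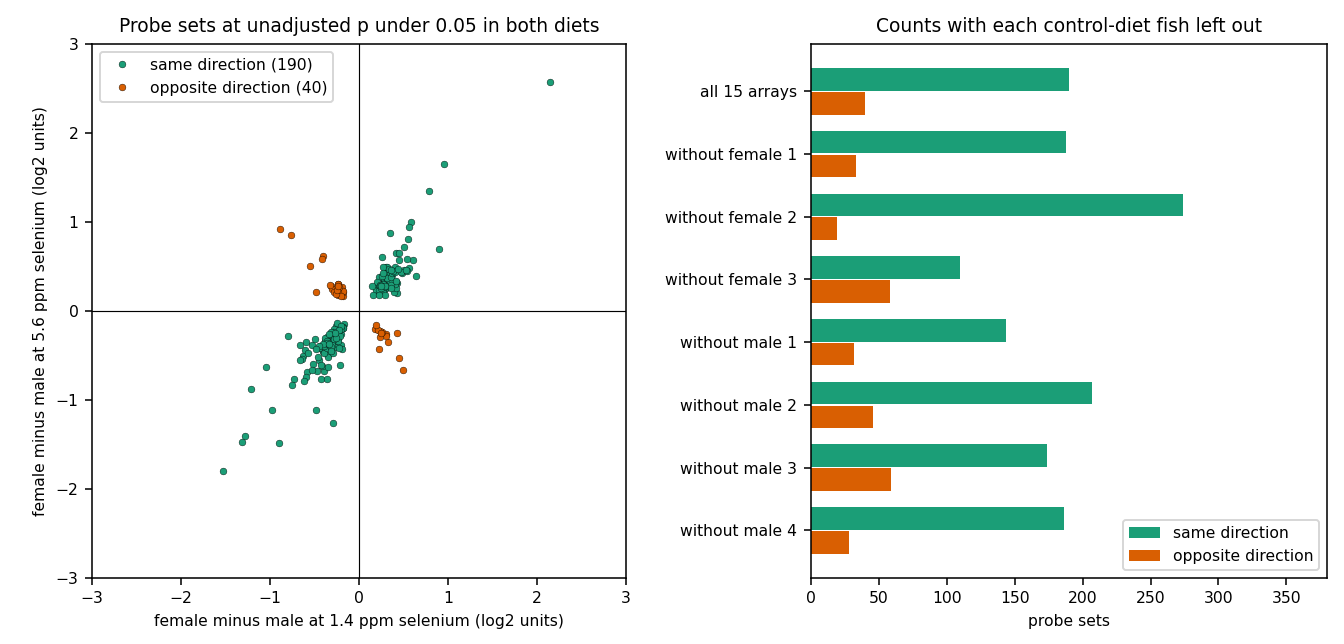
Left, the female minus male difference at 5.6 ppm selenium against that at 1.4 ppm selenium (log2 units) for the 190 probe sets in the same and the 40 in opposite directions. Right, the same counts with all 15 arrays and with each control-diet fish left out in turn, lowest in excess without female 3 (110 and 58) and highest without female 2 (274 and 19).

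Read the other way, the 162 probe sets called on the selenium diet had the same direction in the control fish in 114 cases, 70.4 percent. They comprised 34 of the 55 called higher and 80 of the 107 called lower in females. At an unadjusted p under 0.05, which uses the same variance as the calls, 23 had the same direction and 1 the opposite. Over all probe sets these counts were 605 and 285. The same direction thus held for 14.2 percent of the 162 and 3.90 percent of all probe sets. For the change between the diets 0 of the 162 were called, and 125 had an unadjusted p under 0.05, against 1298 of all 15502. The selenium difference that chose the 162 enters that change. The median control difference, taken in the direction of the call, was 0.10, against 0.58 in the selenium fish, whose size the calls selected. Without the third control female the share in the same direction was 54.3 percent, and over all probe sets 48.4 percent. Without the second control female the share was 81.5 percent, and over all probe sets 59.5 percent. With all fish the share over all probe sets was 54.9 percent.

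Each gene list was described by its counts and its median beside those of all genes. Over all 8793 genes, each read by its brightest probe set, 54.0 percent were higher in control females, with a median of 0.013. Over all 15502 probe sets the share was 47.4 percent and the median -0.009, so the baseline depends on that choice. By the brightest probe set 3.66 percent of genes were higher and 2.01 percent lower at an unadjusted p under 0.05. Without overlap, 4.58 percent lay above and 3.35 percent below the males. Of 42 list means, 4 had all control females above all control males and 2 had them all below. Above were cytosolic ribosomal proteins, meninges with matrix, translation factors, and metal and iron handling, and below were neuronal and gonad genes. Members of a list share cells and pathways and are not independent, so no test was made of a list. In whole-brain RNA, fewer cells of a type and less RNA per cell cannot be told apart.

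Among the sex steroid genes none was called, and the list was split between the sexes. Of 32 measured genes of steroid synthesis and reception, 15 were higher and 17 lower in females, with a median of -0.0037, against 0.013 over all 8793 genes. Of these, hsd17b3 included, 1 lay without overlap above the males and 3 below, against 4.58 and 3.35 percent of all genes. The brain aromatase gene cyp19a1b was bright, at 12.21, 12.19 and 11.91 in females and 11.94, 11.92, 11.88 and 12.30 in males. Those groups overlapped, and the difference was 0.09 ± 0.11 with a 95% interval from -0.15 to 0.33. Its other 2 probe sets were dimmer and read 0.60 ± 0.24 and 0.04 ± 0.14. In the selenium fish the brightest read 0.29 ± 0.10, and the females lay all above the males. The oestrogen receptor gene esr1 stood at -0.0042 ± 0.13, with an interval from -0.28 to 0.27, and the other receptors esr2a and esr2b at -0.26 ± 0.15 and -0.31 ± 0.19. For esr2a and esr2b the females lay all below the males, at 5.83 to 5.98 against 5.99 to 6.25 in males for esr2a and 7.10 to 7.47 against 7.49 to 7.57 in males for esr2b. A dimmer probe set of esr2a read 0.01 ± 0.21, with overlap. The progesterone receptor membrane component gene pgrmc2 stood at -0.60 ± 0.24 and shbg, the sex hormone binding globulin gene, at 0.20 ± 0.08. Of the other members, esrrga stood at -0.44 ± 0.23 and hsd11b2 at 0.42 ± 0.34, both with overlap. None of these passed the test, and their adjusted p values ran from 0.824 to 0.999.

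Genes best known from the gonads gave small differences. The mean of their list was 5.02, 5.09 and 5.09 in control females. In control males it was 5.14, 5.19, 5.10 and 5.13, narrowly without overlap. The first quartile of mean level over all probe sets was 5.14. Over 30 gonad and germ cell genes 7 were higher and 23 lower in females, with a median of -0.07, and 0 were called. An unadjusted limma p under 0.05 was found for 2 of the 30, both lower, against 2.01 percent lower of all genes. These were inhbaa and dnd1, a germ cell RNA-binding protein gene, at -0.53 ± 0.15 and -0.35 ± 0.15. On the selenium diet inhbaa was called, at -0.66 ± 0.14 (adjusted p = 0.0459), while dnd1 stood at 0.25. In those fish 17 of the 30 were higher in females, with a median of 0.042, and the list means overlapped. Of 11 egg yolk and eggshell genes 4 were higher and 7 lower in control females, with list means of 4.52 to 4.63 in females and 4.51 to 4.65 in males. The vitellogenin genes, which code for yolk precursors made in the female liver, were dim in both sexes, with vtg2 at 4.69 in females and 4.73 in males, vtg3 at 4.40 and 4.19, and vtg4 at 3.30 and 3.39.

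Of 25 measured peptide genes 2 had separate groups, gnrh3 and avp, both higher in females, a share near the 4.58 percent higher and 3.35 percent lower of all genes. The gene of the preoptic and terminal nerve form of gonadotropin-releasing hormone, gnrh3, was read by 2 probe sets. The brighter read 7.99, 7.30 and 8.12 in females and 6.62, 7.13, 6.70 and 7.16 in males, a difference of 0.90 ± 0.31 (SE, adjusted p = 0.816). The dimmer read 4.02, 3.80 and 4.21 in females and 3.43, 3.53, 3.60 and 3.40 in males, at 0.52 ± 0.11 (adjusted p = 0.574). Both placed every female above every male in the control fish, and both gave differences below 0 in the selenium fish, -0.16 and -0.07. The vasotocin gene avp read 8.45, 8.48 and 8.67 in females and 7.92, 8.04, 8.20 and 8.01 in males, also without overlap, at 0.49 ± 0.17 (adjusted p = 0.816), and 0.18 ± 0.16 on the selenium diet. For gnrh2, the midbrain form, the females read 6.11, 8.22 and 9.11 and the males 8.80 to 9.48, so the groups overlapped and the difference of -1.24 ± 0.54 leaned on the first female. Of the 25, 14 were higher and 11 lower in females. Neuropeptide B gene npb stood at 0.34 ± 0.14 and the PACAP gene adcyap1b at -0.17 ± 0.07. Of the 9 measured pituitary genes 6 were higher in females, led in size by gh1, whose 0.84 ± 0.75 came from the third female alone; without that fish it was -0.49.

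**Figure D4:**
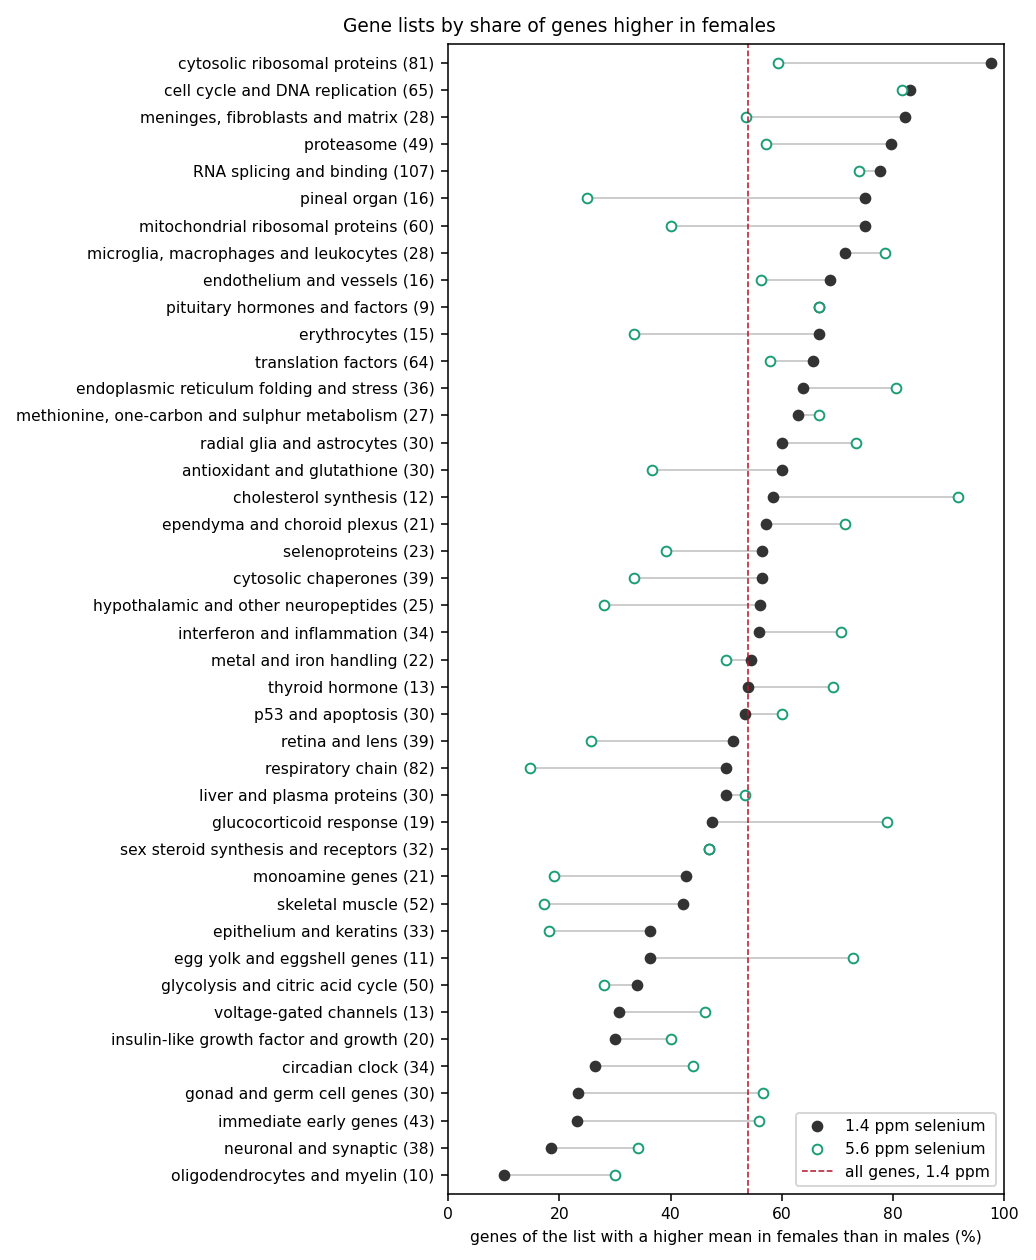
Share of the measured genes of each of 42 lists with a higher mean in females than in males, at 1.4 ppm selenium (filled) and 5.6 ppm selenium (open); the number of genes stands in brackets and the dashed line marks all genes at 1.4 ppm, 54.0 percent. Cytosolic ribosomal proteins, the cell cycle and meninges with matrix lie furthest to the right in control fish, and neuronal and myelin genes furthest to the left.

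Ribosomal protein genes were higher in control females almost without exception, by a small amount. The list of 81 genes was drawn by symbol, and 7 of them are kinases or other genes that only share the prefix; of the 74 ribosomal protein genes proper, 73 were higher in females. Their median was 0.08, the range -0.02 to 0.31, and the mean level was 12.84, 12.80 and 12.87 in females and 12.77, 12.72, 12.74 and 12.77 in males. Groups were separate upward for 21 of the 74, none downward, against 4.58 and 3.35 percent of all genes. At an unadjusted p under 0.05 were 4 of the 74, all higher, against 3.66 percent of all genes. Among them rpl28 and rps20, proteins of the large and small subunit, stood at 0.19 ± 0.07 and 0.16 ± 0.06. When each array was centred on its own median, 69 of the 81 were higher, against 43.5 percent of all genes, and the median of the list was 0.048. On the selenium diet 45 of the 74 were higher, with a median of 0.016. Genes of mitochondrial ribosomal proteins were higher in control females for 45 of 60, those of the proteasome for 39 of 49, those of splicing and RNA binding for 83 of 107, and translation factors for 42 of 64. After centring, these counts were 40, 31, 62 and 33. Genes of the respiratory chain were split evenly, 41 higher and 41 lower.

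Cell cycle genes stood higher in females on both diets. Of 65 genes of DNA replication and mitosis, 54 were higher in control females, with a median of 0.20, and 53 of the same 65 in selenium females, with a median of 0.27. In control fish 12 of the 65 had an unadjusted p under 0.05 upward and 1 downward, against 3.66 and 2.01 percent of all genes. The 1 downward was smc4, a condensin subunit gene at -0.37. The mitotic kinesin gene kif11 read 5.85, 5.88 and 6.26 in females and 5.14, 5.57, 4.46 and 5.21 in males, at 0.90 ± 0.24 (SE, adjusted p = 0.782), but 0.01 ± 0.22 on the selenium diet. The chromatin gene hmgb2b stood at 0.29 ± 0.09 and the tubulin gene tuba5 at 0.58 ± 0.17, which was called on the selenium diet at 1.00 ± 0.16 (adjusted p = 0.0218). The list mean was 6.74, 6.78 and 7.06 in control females and 6.76, 6.60, 6.62 and 6.61 in control males, so the first male lay within the females. Between 51 and 56 of the 65 genes were higher when any 1 control fish was left out, and 52 after centring, but without the third female the median was 0.09. That female had the highest gapdh 3′ minus 5′ difference of the control fish, 1.61, and selenium females lay all above selenium males in it. The part of this measure in the list was not tested.

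Genes of meninges, fibroblasts and the extracellular matrix were higher in control females for 23 of 28, with a median of 0.27. Their list mean was 7.49, 7.69 and 7.55 in females and 7.29, 7.37, 7.08 and 7.39 in males, without overlap. The laminin chain gene lamb1a stood at 0.36 ± 0.13, the fibronectin gene fn1a at 0.62 ± 0.22, the thrombospondin gene thbs4b at 0.38 ± 0.14 and aldh1a2, a retinoic acid synthesis gene of the meninges, at 0.28 ± 0.11. All 4 were uncalled, with adjusted p values of 0.816 to 0.819. Among selenium females 15 of the 28 were higher and the groups overlapped. Genes of microglia, macrophages and leukocytes were higher for 20 of 28 in control females, median 0.25, and for 22 of 28 in selenium females, median 0.41. Their list mean, 8.04, 7.49 and 7.91 in control females and 7.54, 7.30, 7.24 and 7.90 in control males, overlapped, since the first and the fourth male lay above the second female.

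Inflammation genes were mixed, at 19 of 34 higher. At an unadjusted p under 0.05 were 5 higher and 2 lower, against 3.66 and 2.01 percent of all genes. Groups were separate above the males for 3 and below for 1, against 4.58 and 3.35 percent of all genes. The lysozyme gene lyz read 6.07, 6.49 and 8.19 in females and 5.40, 5.55, 5.42 and 6.22 in males, at 1.27 ± 0.40. The matrix protease gene mmp9 stood at 0.82 ± 0.29 with separate groups. On the other side, the brightest probe set of mpx, described above, stood at -1.32 ± 0.45 with overlap. None of these was called.

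Neuronal and myelin genes lay on the other side. Of 38 neuronal and synaptic genes 7 were higher and 31 lower in control females, with a median of -0.06; in selenium females 25 of the 38 were lower, with the same median of -0.06. In the control fish the groups were separate below the males for 3 of the 38 and above for 1, against 3.35 and 4.58 percent of all genes. The synuclein gene sncgb stood at -0.39 ± 0.12, the neuronal sodium pump gene atp1a3b at -0.32 ± 0.11 and the synaptic vesicle gene vamp1a at -0.21 ± 0.09, each with all females below all males. Their list mean was 10.73, 10.78 and 10.72 in females and 10.85, 10.80, 10.84 and 10.78 in males, which left the groups narrowly separate. On the selenium diet vamp1a was called, at -0.61 ± 0.08 (adjusted p = 0.0143). Of 13 voltage-gated channel genes 4 were higher and 9 lower, with the sodium channel subunit gene scn3b at -0.53 ± 0.18. Of 10 oligodendrocyte and myelin genes 1 was higher and 9 lower, median -0.08, with olig2 and cldnk, a lineage transcription factor and a myelin claudin, at -0.23 ± 0.13 and -0.16 ± 0.10. Radial glia genes were split, 18 higher and 12 lower of 30: slc1a3a and the filament gene vim stood at 0.35 ± 0.10 and 0.54 ± 0.18, and the filament gene gfap at -0.21 ± 0.08.

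**Figure D5:**
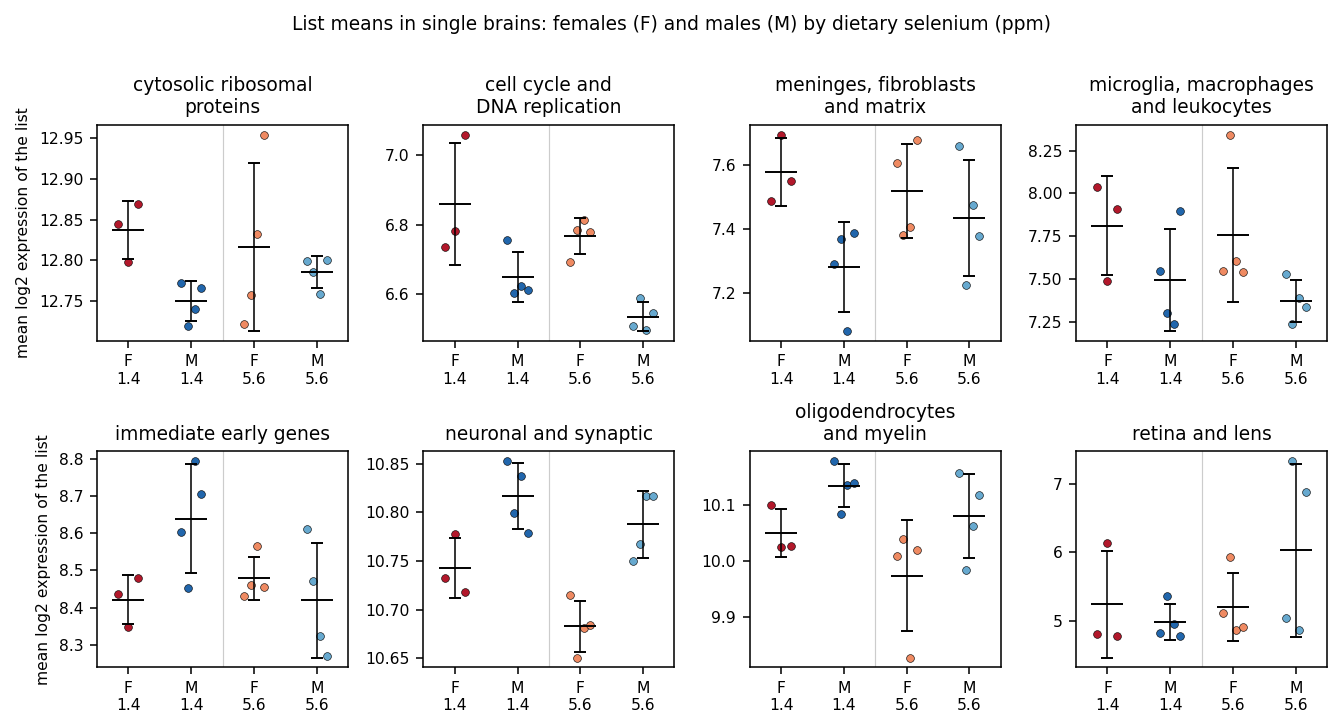
Mean log2 expression of 8 gene lists in each brain (points) by sex and dietary selenium in ppm, with group mean (bar) and SD (error bars); the ribosomal panel holds the 74 genes proper. Control females lie above control males without overlap for ribosomal and meningeal genes and below them for neuronal genes, and the retina panel shows the second control female at 6.14.

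Immediate early genes, which neurons and other cells switch on within minutes of a stimulus, were lower in control females for 33 of 43, with a median of -0.17. At an unadjusted p under 0.05 were 10 lower and 1 higher, against 2.01 and 3.66 percent of all genes. The AP-1 gene fosab read 9.06, 8.88 and 8.91 in females and 10.08, 9.20, 10.61 and 9.88 in males, without overlap, at -0.99 ± 0.27 (SE, adjusted p = 0.816). For maff the females read 9.62, 9.78 and 9.54 and the males 9.98, 9.96, 10.02 and 9.94. The zinc finger gene egr1 stood at -0.59 ± 0.17, and its groups overlapped through the second female and the second male. Klf2b, which shear stress induces in vessels, was the 1 higher gene, at 0.44 ± 0.13 with separate groups. The list mean was 8.44, 8.35 and 8.48 in control females and 8.60, 8.45, 8.79 and 8.70 in control males, so the second male lay among the females. On the selenium diet 24 of the 43 were higher in females, the median was 0.033, and fosab and maff stood at -0.10 ± 0.25 and 0.09 ± 0.07. The time and manner of sampling are not given for any fish, and their part in these genes was not tested.

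Of 12 measured cholesterol synthesis genes 7 were higher in control females, median 0.16, and 11 in selenium females, median 0.55, and the change with diet was called for none. The gene of HMG-CoA synthase, hmgcs1, read 10.42, 10.46 and 11.22 in control females and 10.03, 10.21, 9.94 and 10.37 in control males, at 0.56 ± 0.20 without overlap. It was called on the selenium diet, at 0.94 ± 0.19 (adjusted p = 0.0407). The sterol dehydrogenase gene nsdhl read 7.32, 7.28 and 8.40 in control females and 7.11 to 7.13 in control males, at 0.55 ± 0.23, with most of the difference in the third female. This same female also stood highest in hmgcs1, lyz and tuba5 and had the highest gapdh 3′ minus 5′ difference of the control fish.

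The widest differences of single probe sets came with wide spreads. A difference of more than 1 log2 unit was found for 79 probe sets, 42 higher and 37 lower in females. In 76 of the 79 the values of 1 sex alone spanned a range as wide as the difference. The groups did not overlap in 14 of the 79, against 1188 of all 15502 probe sets, 7.66 percent. The unadjusted p was under 0.05 in 27 of the 79, against 890 of all 15502. Since the size of the same difference chose the 79, these counts describe the choice.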

How the data were processed

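Each sample was 1 array hybridised with RNA from the brain of 1 fish. The deposited values were log2 expression levels per probe set, and the submitters' processing notes name RMA and the affy package, with versions not given in the sources used here. RMA as usually run corrects background, gives arrays a shared distribution and summarises probes, in which case a change shared by all transcripts is not visible. The array count, not a read depth, limits precision.

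From these values limma 3.58.1 in R 4.3.3 fitted 4 group means (sex by diet) over the 15 arrays, which share 1 estimate of spread, with moderated variances. Females minus males on the control diet, on the selenium diet, and the change between them were tested over 15502 probe sets, with 115 control probe sets left out of 15617, with Benjamini-Hochberg adjustment of the p-values. A call was an adjusted p under 0.05. Of the probe sets, 10795 had 1 gene symbol in the platform annotation, 135 had several and 4572 had none. Where a gene had several, lists took the brightest. Each fish has its own number, no number is shared between groups as a pair, and no batch is given. Single values per array were compared by an exact permutation test over 35 assignments, whose smallest p is 0.0286. RNA integrity was checked by the gapdh control probes alone. The fit was tested on simulated data.

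The genes named were the 20 of smallest p, since none was called, up to 4 of smallest p from each of 42 gene lists, and further sex steroid genes. The plan was to name every sex steroid gene, but only part of the 32 measured are named. Other genes are said to be chosen after their values were seen. The comparison and the lists were chosen with earlier results of these data known. Alternatives were the arrays in the fit, scaling, a filter at a mean log2 of 5, variance moderation, array weights, covariates, the mean of a gene's probe sets, and each control fish left out. The readings across diets were chosen after seeing the data. So was a setting that leaves out 3 selenium males, for which no counts are given.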

Additional observations from a re-analysis of the deposited data

Results flagged for a closer look

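In 7 of 109 examined values, namely the named genes and the list means, 1 control male lay far from the other 3 by Dixon's criterion, which chance meets in about 1 of 20 groups. The 3 control females are too few for it. The third male stood at 7.82 for igf1, with the other males at 7.02 to 7.10, and at 8.70 for thbs4b, with the others at 8.44 to 8.48. The fourth male stood at 12.30 for cyp19a1b, with the others at 11.88 to 11.94, which placed this male above all 3 females. The first male stood at 6.60 for gh1, with the others at 4.72 to 4.84, and at 6.76 for the cell cycle list mean, with the others at 6.60 to 6.62. The second male stood at 6.91 for the epithelium and keratin list mean, with the others at 5.81 to 5.93, and at 9.92 for the translation factor list mean, with the others at 9.99 to 10.00.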

How the results depend on the processing

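The count of called probe sets on the control diet was 0 under each of 10 alternatives other than leaving out a fish, with smallest adjusted p values from 0.0525 to 0.912. It ranged from 0 to 6 (0 to 4 higher and 0 to 2 lower in females) with a control fish left out in turn, the 6 without the third female; hsd17b3 and add1 were the 2 of 67 named genes that passed there. The 890 probe sets at an unadjusted p under 0.05 became 500 with the mean of each gene's probe sets, which tests fewer features, and 701 to 898 with a fish left out. The 162 calls on the selenium diet became 4 with the 8 selenium arrays alone, 12 without selenium males 1, 2 and 4, which leaves 1 male assumed to vary like the other groups, and 1 with the gapdh covariate. The cause was not tested. The counts in both diets, 190 in the same and 40 in opposite directions, became 120 and 25 with the gapdh covariate and 74 and 28 without those males. With a control fish left out they ranged from 110 to 274 and from 19 to 59; centred arrays gave 205 and 67. The 70.4 percent of selenium calls with the same direction in control fish ranged from 54.3 to 81.5 percent. Direction turned for 2 named genes: esr1, at 0.0098 with the gapdh covariate, 0.0018 with retina and muscle covariates and from -0.10 to 0.10 with a fish left out, and gh1, which ranged from -0.49 (without the third female) to 1.56 with a fish left out. Of 42 list medians under their alternatives, 13 values moved by more than the spread between fish. Centring moved the median of all probe sets from -0.009 to -0.044 and the share of genes higher in females from 54.0 to 43.5 percent. No paired analysis was possible because each fish carries its own number. With 3 and 4 arrays, the median half-width of an unadjusted 95% interval was 0.27 log2 units. That is not the limit for a call, which after adjustment lay higher. Differences as large as -1.22 for igf1 and -1.04 for add1 were not called.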

Other observations

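The lists not described above gave the following values, with 0 genes called by limma in any of them on the control diet. Circadian clock genes were lower in control females for 25 of 34, with a median of -0.10. The 2 with an unadjusted p under 0.05 were higher, against 3.66 percent higher of all genes. They were the core clock gene bmal1a at 0.35 ± 0.15 and the cryptochrome gene cry4 at 0.28 ± 0.13. Glycolysis and citric acid cycle genes were lower for 33 of 50, with a median of -0.02, and monoamine genes for 12 of 21, with a median of -0.06. Higher in control females were 18 of 30 antioxidant genes, 23 of 36 genes of protein folding in the endoplasmic reticulum, 22 of 39 cytosolic chaperone genes and 17 of 27 genes of one-carbon and sulphur metabolism. Of the antioxidant genes the glutathione transferase gene gstt1a stood at 0.71 ± 0.25, with all females above all males.

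Of the tissue lists, 11 of 16 endothelial, 10 of 15 erythrocyte, 12 of 21 ependymal and 12 of 33 epithelial genes were higher in control females. The forkhead gene foxc1a, a marker of vessel-associated mesenchyme, stood at 0.46 ± 0.15 with separate groups. Liver and plasma protein genes were split, 15 higher and 15 lower, with the protease inhibitor gene serpina1l at 0.39 ± 0.12 and the vitronectin gene vtnb at 0.96 ± 0.34. Metal and iron genes were higher for 12 of 22, thyroid hormone genes for 7 of 13, p53 and apoptosis genes for 16 of 30 and glucocorticoid response genes for 9 of 19.

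The pair of widest single differences, both chosen after their values were seen, belonged to probe sets with no gene symbol, at -5.13 and -3.37. The first averaged 4.18 ± 0.09 in females and 9.31 ± 3.51 in males (SD, n = 3 and 4). Its second male read 4.08, within the females at 4.08 to 4.26, while the other males stood at 10.55 or more. Selenium females read 4.40, 4.46, 10.43 and 10.99, and selenium males 4.22 to 4.40 except the third at 10.78. Their means, 7.57 and 5.92, thus lay between a low and a high level. The identifier shares its cluster number with a ctsba probe set, where the third control male alone stood low among control fish, at 4.41. The second averaged 4.03 ± 0.19 in females and 7.41 ± 0.58 in males. On the selenium diet it averaged 5.51 in females and 5.89 in males, with ranges of 3.89 to 7.07 and 3.87 to 7.95.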
